A study of Mus musculus with 10 samples.

Results

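The ABC, SLCO and SLC22 transporter genes are 88 protein-coding genes of the mouse, out of 38922 genes in the deposited tables. They were chosen by symbol, as the protein-coding genes named Abca to Abcg, Slco or Slc22a with a number, apart from 1 ABC gene. The rule uses no measured value, but it was set with earlier results of these data known. They comprised 49 ABC genes, 14 SLCO genes and 25 SLC22 genes. Their RNA was measured in livers of 10 male wild-type C57BL/6N mice aged 6 weeks, an inbred laboratory strain, kept on standard chow with a regular light and dark cycle. In the CD95-Ab group, 5 mice were injected intraperitoneally with 0.5 µg of a CD95-activating antibody per g of body weight, which triggers the Fas death receptor and kills hepatocytes. In the saline group, 5 mice received the same volume of saline, and all livers were taken after 6 h. Each mouse gave 1 library of whole liver, so a fall in the RNA of a gene cannot tell fewer cells of a type apart from less RNA per cell.

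ABC proteins bind and split ATP to push their substrates across a membrane, whereas the SLCO and SLC22 carriers move organic anions, cations and zwitterions without splitting ATP themselves. In hepatocytes, carriers of the sinusoidal side take bile acids, hormones, drugs and bilirubin out of blood, and ABC exporters of the canalicular side secrete phospholipid, sterols and conjugated drugs into bile. Other ABC proteins work inside the cell, in peroxisomes, mitochondria and lysosomes, and some ABCC exporters of the sinusoidal side return compounds to blood.

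The libraries held 25965699 to 62097636 counts in saline mice and 27480796 to 44962196 in CD95-Ab mice. CPM below are counts per 1000000 of a TMM-adjusted total, on which 3 counts correspond to 0.0556 to 0.121 CPM. Mitochondrial genes took 21.9% of the counts of saline replicate 5 and 22.1% of those of CD95-Ab replicate 4, compared with 7.56% to 18.0% in the other mice, and these libraries stood apart on the second principal component. The liver label held, since the summed level of 8 hepatocyte markers was between 100800 and 126100 CPM in saline mice. It was between 46910 and 85050 CPM after CD95-Ab, with 4 of 8 markers lower, beside 22.0% of all genes tested, and none higher. Albumin (Alb) made up most of this sum, with 76150 to 98070 CPM in saline mice and 30500 to 60980 CPM after CD95-Ab. Log2 fold changes were below 0 for 6 of the 8 markers and above 0 for Apob (0.17) and Tat (0.31), neither of them called. Of the markers of other cells, 5 of 6 sinusoidal endothelial, 4 of 6 stellate cell, 4 of 6 cholangiocyte (1 was lower), 5 of 5 tested neutrophil, 5 of 6 lymphocyte and 6 of 6 erythroid markers were higher, beside 25.4% of all genes tested. For Kupffer cells it was 2 of 6, and their summed levels overlapped between the groups. The summed levels of saline and CD95-Ab mice lay at 53.4 to 123 and 176 to 325 CPM for endothelium, 224 to 295 and 462 to 759 for stellate cells, 31.2 to 44.5 and 51.1 to 189 for cholangiocytes, 111 to 387 and 212 to 515 for Kupffer cells, 4.08 to 10.2 and 102 to 408 for neutrophils, 1.04 to 3.83 and 5.93 to 9.65 for lymphocytes, and 135 to 325 and 1065 to 34050 for the erythroid list. No marker was at 0 in every mouse, and the part of these cells in the transporter changes below was not tested.

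Livers of mice injected with CD95-Ab had less RNA of most of the transporter genes that changed and much more RNA of a few that were scarce in saline-injected controls. Of the 61 members with enough counts to be tested, 25 fell and 11 rose at an FDR of 0.05 or less. The largest increases were in Slco3a1, Abcc1 and Abcb1b, and the largest decreases in Slco1a6, Abcd2, Slco1a4 and Abcg8. The median log2 fold change of the 61 members was -0.48, compared with 0.01 over all 13719 genes tested. All tests of single genes used the quasi-likelihood test of edgeR with Benjamini-Hochberg adjustment over those genes. The members called lower were 41.0% of those tested, beside 22.0% of all genes tested, and those called higher were 18.0%, beside 25.4%. The study's second threshold was a log2 fold change of 2 or more in either direction. Past it, 3 of the 61 members were up, beside 6.59% of all genes tested, and 4 of the 61 down, beside 1.11%. All CD95-Ab mice lay below all saline mice for 17 of the 61 members (27.9%), beside 14.7% of all genes tested. They lay above all saline mice for 8 of the 61 (13.1%), beside 18.6%. The other 11 called members had overlapping groups. Without the libraries of saline replicate 5 and CD95-Ab replicate 4, 31 members were lower and 11 higher. The limit on low counts bears on these numbers. Slco1a6, Slc22a27 and Slc22a29, called lower, exceeded it in every mouse of the saline group only. Slco4a1, called higher, exceeded it in every mouse of the CD95-Ab group only. With at least 10 counts required in every mouse, these genes were not tested. In that fit, 22 members were lower, 10 higher and 6 past both thresholds.

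By family, 15 of 38 tested ABC genes fell and 9 rose, 4 of 8 tested SLCO genes fell and 2 rose, and 6 of 15 tested SLC22 genes fell with none higher. Beside these counts, 22.0% of all genes tested fell and 25.4% rose. At an unadjusted p under 0.05 by edgeR, 9 SLC22 genes were lower and 0 higher, and none was called higher by DESeq2 or in any of the 18 fits made. Slc22a17, Slc22a26, Slc22a27 and Slc22a29 exceeded the limit on low counts in every mouse of the saline group only. Such genes could hardly come out higher, so the filter itself favoured a fall in this family. The direction differed with the level in saline liver. Among members at 10 CPM or more in saline mice, 18 of 38 fell and 3 rose, and among those tested below 10 CPM, 7 of 23 fell and 8 rose. Over all genes tested, 28.6% fell and 17.4% rose in the upper class, and 15.5% fell and 33.2% rose in the lower class. The summed level of all SLCO genes was 1220, 1135, 2033, 1628 and 943 CPM in saline mice and 875, 875, 848, 705 and 1069 CPM in CD95-Ab mice. The lowest saline sum, that of replicate 5, lay below the highest CD95-Ab sum, so the groups overlapped.

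**Figure D1:**
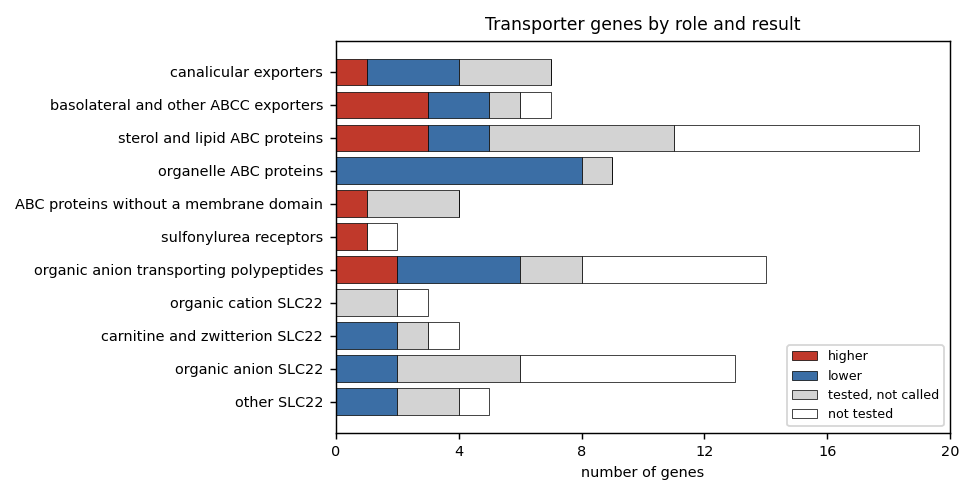
Number of transporter genes (x axis) in each role (y axis), divided into those higher after CD95-Ab, lower, tested without a call, and not tested for few counts. The organelle ABC proteins had 8 of 9 genes lower, beside 22.0% of all genes tested. Of the 11 tested sterol and lipid ABC proteins, 3 were higher (27.3%) and 2 lower (18.2%). These shares are near the 25.4% and 22.0% of all genes tested.

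**Figure D2:**
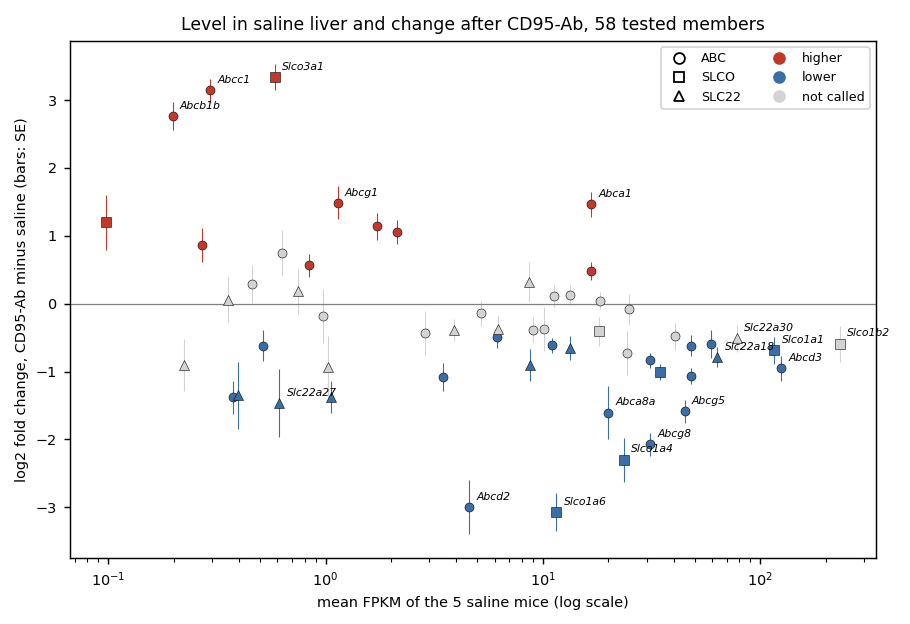
Log2 fold change after CD95-Ab with its standard error (y axis) against the mean FPKM of the 5 saline mice (x axis, log scale) for 58 of the 61 tested members, with symbols for family and colours for the call. The 3 members above a log2 fold change of 2 all lay under 1 FPKM in saline liver.

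Slco3a1, an organic anion transporting polypeptide that carries prostaglandins and thyroid hormone, rose most. Its level was 1.69, 1.69, 2.25, 1.69 and 1.78 CPM in saline mice 1 to 5 and 16.7, 22.8, 23.9, 14.9 and 14.2 CPM in CD95-Ab mice 1 to 5. The lowest CD95-Ab mouse was well above the highest saline mouse, and the mean rose from 1.82 ± 0.244 to 18.5 ± 4.53 CPM (SD, n = 5 mice per group), with a log2 fold change of 3.34 (SE 0.19, adjusted p = 3.89e-07). The gene (ENSMUSG00000025790) lies on chromosome 7 from 74275419 to 74554780 of GRCm38.

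Abcc1, which encodes the multidrug resistance protein that exports glutathione conjugates and leukotriene C4, was the next. Its level was 1.74, 1.72, 1.296, 1.27 and 1.91 CPM in saline mice and 12.5, 11.2, 15.2, 16.2 and 15.7 CPM after CD95-Ab. No mouse of the first group exceeded 2 CPM and none of the second was below 11 CPM. The mean rose from 1.59 ± 0.287 to 14.2 ± 2.19 CPM (SD, n = 5 mice per group), with a log2 fold change of 3.14 (SE 0.17, adjusted p = 3.24e-07). Abcc1 (ENSMUSG00000023088) lies on chromosome 16 from 14361558 to 14475737.

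Abcb1b encodes the P-glycoprotein isoform that exports hydrophobic drugs and that is low in untouched liver. It was present at 0.965, 0.623, 0.648, 1.08 and 0.779 CPM in saline mice and 6.001, 4.52, 6.77, 5.69 and 4.83 CPM in CD95-Ab mice. The groups were far apart, and the mean rose from 0.818 ± 0.198 to 5.56 ± 0.906 CPM (SD, n = 5 mice per group), with a log2 fold change of 2.76 (SE 0.21, adjusted p = 1.92e-06). The RNA of its neighbour Abcb1a, the other P-glycoprotein gene, was 4.68, 2.64, 1.86, 1.31 and 1.37 CPM in saline mice and 4.56, 2.99, 4.897, 3.43 and 4.18 CPM after CD95-Ab. Saline replicate 1 had the second highest Abcb1a value of all mice, the groups overlapped, and the log2 fold change of 0.75 (SE 0.33, adjusted p = 0.0815) did not pass the test. Without saline replicate 1 it was 1.15 and passed, with an adjusted p of 0.00429 by edgeR, and with the replicate number as a block it was 0.89, with an adjusted p of 0.03999. Of the 100-base windows of Abcb1a, 7.72% are shared with Abcb1b or Abcb4. Of those of Abcb1b, 8.72% are shared with Abcb1a, so how RSEM assigned such reads bears on both values.

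The 250 bases before the start of Abcb1b are printed because it had the largest rise of the members with a promoter in the table used. They are from RefSeq (GRCm38.p6, plus strand, chr5:8797897-8798146), 5′ to 3′, and capitals mark the only motif found.
Abcb1b: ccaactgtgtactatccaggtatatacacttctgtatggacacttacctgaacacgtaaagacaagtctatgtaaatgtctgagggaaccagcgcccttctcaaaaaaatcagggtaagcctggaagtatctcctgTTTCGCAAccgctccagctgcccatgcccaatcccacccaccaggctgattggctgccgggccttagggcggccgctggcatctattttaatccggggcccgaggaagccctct
The capitals are a match to TTGCNNAA, a C/EBP motif, read on the minus strand and starting 114 bases before the start site. The same letters occur on either strand in 9.56% of 32851 promoter windows of this length. Of the other motifs searched on both strands, AP-1 (TGAGTCA) occurs in 4.46% of windows, the cyclic AMP response element (TGACGTCA) in 1.55%, an NF-kB motif (GGANTTTCC) in 1.07%, the antioxidant response element (TGACNNNGC) in 10.2% and an HNF4 motif (CAAAGTCCA) in 0.384%. None of these was in the Abcb1b window. An exon of Gm5106 on the minus strand covers 203 bases of this window. The table's start for Abcb1a lies 93.0 kb before the start of the gene in GENCODE, so its window is not compared. Promoters of Slco3a1, Abcc1, Abcd2 and Abcg1 are not analysed here.

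At the other end, Slco1a6, an organic anion transporting polypeptide of kidney and liver, fell most. Its level was 4.399, 4.66, 3.33, 6.16 and 3.91 CPM in saline mice and 0.449, 0.541, 0.358, 0.363 and 0.864 CPM after CD95-Ab, where 9 to 39 counts per mouse were left. Every CD95-Ab mouse was below every saline mouse, and the mean fell from 4.49 ± 1.06 to 0.515 ± 0.209 CPM (SD, n = 5 mice per group), with a log2 fold change of -3.07 (SE 0.28, adjusted p = 5.79e-06). It passed the filter on low counts through the saline group alone. Its deposited counts and FPKM imply a transcript of 0.402 kb, which is 14.3% of its longest GENCODE transcript, compared with a median of 90.8% over 64 members, so its level per length is uncertain.

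Abcd2, which brings very long chain fatty acids into peroxisomes, was 31.3, 40.6, 18.4, 10.9 and 16.1 CPM in saline mice and 3.27, 2.67, 4.82, 1.29 and 2.66 CPM after CD95-Ab. Saline mice differed widely among themselves, but their lowest value was above the highest of the other group. The mean fell from 23.4 ± 12.2 to 2.94 ± 1.27 CPM (SD, n = 5 mice per group), with a log2 fold change of -2.995 (SE 0.40, adjusted p = 9.54e-05).

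Slco1a4, a carrier of bile acids and digoxin on the sinusoidal side of hepatocytes, was 67.4, 53.8, 89.4, 81.2 and 79.4 CPM in saline mice and 12.4, 5.45, 25.9, 15.1 and 16.7 CPM after CD95-Ab. The groups did not overlap, and CD95-Ab replicate 2 was the lowest. The mean fell from 74.3 ± 13.9 to 15.1 ± 7.42 CPM (SD, n = 5 mice per group), with a log2 fold change of -2.298 (SE 0.32, adjusted p = 0.000146).

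**Figure D3:**
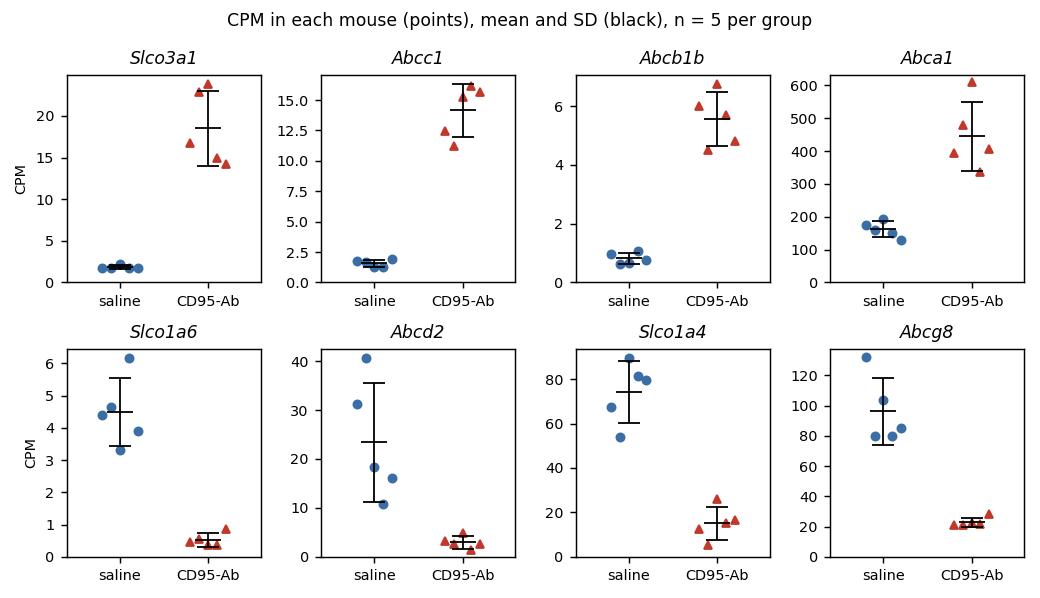
CPM in each mouse (points; blue circles saline, red triangles CD95-Ab), with the mean and SD of 5 mice in black, for 4 members that rose (upper row) and 4 that fell (lower row). In each panel the groups do not overlap, as for Abcc1 with no saline mouse over 2 CPM and no CD95-Ab mouse below 11 CPM.

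Among the 7 canalicular exporters, 3 fell (Abcg8, Abcg5 and Abcc2), 1 rose (Abcb1b) and 3 did not pass the test. Those lower were 42.9%, beside 22.0% of all genes tested, and those higher 14.3%, beside 25.4%. Abcg5 and Abcg8 form the dimer that secretes cholesterol and plant sterols into bile. Abcg8 was 132, 79.9, 103, 79.8 and 85.4 CPM in saline mice and 21.2, 21.1, 22.1, 21.5 and 28.2 CPM after CD95-Ab, and its mean fell from 96.1 ± 22.2 to 22.8 ± 3.04 CPM (SD, n = 5 mice per group), with a log2 fold change of -2.07 (SE 0.17, adjusted p = 2.67e-06). Abcg5 was 125, 75.2, 89.1, 75.3 and 116 CPM in saline mice and 30.3, 29.4, 38.6, 33.1 and 28.7 CPM after CD95-Ab, and its mean fell from 96.01 ± 23.1 to 32.03 ± 4.03 CPM (SD, n = 5 mice per group), with a log2 fold change of -1.58 (SE 0.17, adjusted p = 2e-05). Neither gene had overlapping groups, and the CD95-Ab mice were close to each other except for Abcg8 in replicate 5. Without saline replicate 1, whose level was the highest for both genes, the log2 fold change of Abcg8 was -1.94 and no longer past the study's limit of 2 or more.

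The genes are read in opposite directions from neighbouring starts on chromosome 17. The stretch between the start of Abcg5 (84683011, minus strand) and 1 of the 2 starts of Abcg8 (84683121, plus strand) is 109 bases long, and it is printed because both genes fell. It is from RefSeq (GRCm38.p6, plus strand, chr17:84683012-84683120), 5′ to 3′, and it holds none of the 6 motifs named, so it has no capitals.
Abcg5 and Abcg8: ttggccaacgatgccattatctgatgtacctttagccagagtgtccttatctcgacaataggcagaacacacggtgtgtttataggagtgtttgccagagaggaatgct
Its GC content was 45.9%, and no GENCODE exon overlaps it.

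Abcc2, which exports bilirubin glucuronides and glutathione conjugates into bile, was 345, 265, 271, 266 and 215 CPM in saline mice and 242, 185, 144, 115 and 217 CPM after CD95-Ab. The groups overlapped, and the mean fell from 272 ± 46.5 to 180.4 ± 51.9 CPM (SD, n = 5 mice per group), with a log2 fold change of -0.59 (SE 0.21, adjusted p = 0.0322). The call was lost, with adjusted p from 0.0502 to 0.0802 by edgeR, without saline replicate 1 or 3 or CD95-Ab replicate 2, 3 or 4, and with totals left unscaled (0.0674). Abcb4, the phosphatidylcholine floppase, was 129.7, 108, 222, 181 and 158 CPM in saline mice and 97.7, 131, 92.4, 109.6 and 141 CPM after CD95-Ab, with overlapping groups and a log2 fold change of -0.48 (SE 0.20, adjusted p = 0.0661). It passed the test without saline replicate 2 (-0.60, adjusted p = 0.0231 by edgeR), without CD95-Ab replicate 5 (-0.56, adjusted p = 0.0492), in DESeq2 (-0.49, adjusted p = 0.0391) and with unscaled totals (-0.55, adjusted p = 0.0466). Abcg2, which exports urate and sulfated compounds, was 39.05, 32.2, 52.6, 72.8 and 59.98 CPM in saline mice and 36.2, 47.2, 39.5, 53.3 and 66.5 CPM after CD95-Ab. Its groups overlapped almost fully, and its log2 fold change was -0.08 (SE 0.23, adjusted p = 0.795).

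Of the other ABCC exporters, 3 rose (Abcc1, Abcc5 and Abcc4), 2 fell (Abcc6 and Abcc3), Abcc10 did not pass the test and Abcc12 was not tested. These counts are out of 6 tested genes and stand beside 25.4% higher and 22.0% lower among all genes tested. Abcc5, an exporter of cyclic nucleotides, was 5.55, 6.52, 3.804, 5.12 and 8.38 CPM in saline mice and 12.3, 10.5, 11.9, 16.4 and 13.8 CPM after CD95-Ab. No CD95-Ab mouse was as low as a saline mouse, and the mean rose from 5.88 ± 1.71 to 13.01 ± 2.23 CPM (SD, n = 5 mice per group), with a log2 fold change of 1.14 (SE 0.20, adjusted p = 0.000707). Abcc4, which exports cyclic nucleotides and bile acids with glutathione on the sinusoidal side, was 2.07, 1.19, 0.986, 1.27 and 1.58 CPM in saline mice and 1.86, 2.29, 3.03, 2.301 and 3.48 CPM after CD95-Ab. Saline replicate 1 lay above CD95-Ab replicate 1, so the groups overlapped, and the mean rose from 1.42 ± 0.422 to 2.59 ± 0.648 CPM (SD, n = 5 mice per group), with a log2 fold change of 0.86 (SE 0.25, adjusted p = 0.0132).

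Abcc6, which is needed for the release of ATP from hepatocytes and is mutated in pseudoxanthoma elasticum, was 193, 185, 159, 153 and 187 CPM in saline mice and 83.9, 72.9, 86.3, 97.8 and 78.1 CPM after CD95-Ab. The groups were clearly separated, and the mean fell from 175 ± 18.1 to 83.8 ± 9.38 CPM (SD, n = 5 mice per group), with a log2 fold change of -1.07 (SE 0.12, adjusted p = 3.35e-05). Abcc3, the sinusoidal exporter of glucuronides, was 208, 142, 209.8, 180.1 and 151 CPM in saline mice and 140.1, 122, 119, 95.6 and 104 CPM after CD95-Ab. The groups touched without overlapping, and the mean fell from 178 ± 31.4 to 116 ± 17.3 CPM (SD, n = 5 mice per group), with a log2 fold change of -0.62 (SE 0.15, adjusted p = 0.00598). Abcc10 ranged from 9.30 to 21.7 CPM in saline mice and from 5.53 to 19.8 CPM after CD95-Ab, with the highest value of each group in the libraries rich in mitochondrial counts, and its log2 fold change was -0.44 (SE 0.34, adjusted p = 0.308). Without CD95-Ab replicate 4 it was -0.88 and passed the test (adjusted p = 0.0162 by edgeR).

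Among the 19 sterol and lipid ABC proteins, 3 rose, 2 fell, 6 did not pass the test and 8 were not tested. Of the 11 tested, 27.3% rose and 18.2% fell, near the 25.4% and 22.0% of all genes tested. Abca1, which loads cellular cholesterol onto apolipoprotein A-I, was 174, 161, 193, 151 and 129 CPM in saline mice and 395, 480.2, 609, 336 and 406 CPM after CD95-Ab. All CD95-Ab mice were above all saline mice, and it was the only member above 100 CPM in saline liver that rose. The mean rose from 162 ± 24 to 445 ± 105 CPM (SD, n = 5 mice per group), with a log2 fold change of 1.46 (SE 0.18, adjusted p = 5.16e-05). Abcg1, which passes cholesterol on to HDL, was 5.27, 4.68, 3.38, 2.96 and 2.82 CPM in saline mice and 13.7, 14.6, 9.08, 7.11 and 9.23 CPM after CD95-Ab. The groups did not overlap, and the mean rose from 3.82 ± 1.09 to 10.7 ± 3.22 CPM (SD, n = 5 mice per group), with a log2 fold change of 1.49 (SE 0.24, adjusted p = 0.000416). Abca7, a phospholipid transporter involved in phagocytosis, ranged from 4.62 to 5.97 CPM in saline mice and from 5.55 to 10.5 CPM after CD95-Ab, with overlapping groups and a log2 fold change of 0.57 (SE 0.17, adjusted p = 0.01496).

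Abca8a, a lipid transporter of the chromosome 11 cluster, was 153, 112, 128, 84.5 and 28.8 CPM in saline mice and 28.98, 30.9, 49.4, 16.8 and 40.2 CPM after CD95-Ab. Saline replicate 5 lay among the CD95-Ab mice, and the other saline mice were above all of them. The mean fell from 101 ± 47.4 to 33.3 ± 12.3 CPM (SD, n = 5 mice per group), with a log2 fold change of -1.603 (SE 0.39, adjusted p = 0.00545), and without saline replicate 5 the log2 fold change was -1.85. Abca9, from the same cluster, was 2.799, 2.46, 1.66, 1.81 and 2.56 CPM in saline mice and 0.642, 0.605, 1.11, 0.888 and 1.08 CPM after CD95-Ab. Again no values overlapped, with a log2 fold change of -1.38 (SE 0.25, adjusted p = 0.000779). The others tested, Abca2, Abca3, Abca5, Abca6, Abca8b and Abcg3, had log2 fold changes from -0.72 (Abca6) to 0.29 (Abca5) and did not pass the test. Without saline replicate 5, Abca6 (-0.87, adjusted p = 0.03995 by edgeR) and Abca8b (-0.49, adjusted p = 0.0285) passed, as did Abca8b without CD95-Ab replicate 5 (-0.53, adjusted p = 0.0250).

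Among the organelle ABC proteins, 8 of 9 fell and 0 rose, by edgeR and also by DESeq2 and at an unadjusted p under 0.05. Those lower were 88.9%, beside 22.0% of all genes tested, whereas 25.4% of all genes tested were higher. Abcd3, which brings branched and long chain fatty acids into peroxisomes, was 328, 287, 453, 492 and 338 CPM in saline mice and 159, 181, 207, 182 and 253 CPM after CD95-Ab, without overlap. Its mean fell from 379.6 ± 87.95 to 196 ± 35.9 CPM (SD, n = 5 mice per group), with a log2 fold change of -0.95 (SE 0.18, adjusted p = 0.00128).

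Abcd4, which helps to release cobalamin from lysosomes, was 5.74, 5.96, 9.27, 10.3 and 11.1 CPM in saline mice and 4.14, 4.24, 3.304, 4.28 and 4.07 CPM after CD95-Ab. Each saline mouse was above each CD95-Ab mouse, with a log2 fold change of -1.08 (SE 0.20, adjusted p = 0.00105). Abcb6, a porphyrin transporter, ranged from 51.0 to 71.8 CPM in saline mice and from 30.4 to 36.8 CPM after CD95-Ab. The groups were well separated, with a log2 fold change of -0.83 (SE 0.11, adjusted p = 0.0001104). Most of its transcript, 86.6% of the 100-base windows, is shared with the overlapping gene model Gm29253, so part of its counts depends on how RSEM assigned reads. Abcb8, of the mitochondrial inner membrane, ranged from 23.2 to 28.2 CPM in saline mice and from 14.01 to 19.7 CPM after CD95-Ab, without overlap and with a log2 fold change of -0.61 (SE 0.11, adjusted p = 0.000891). Abcb10, needed for heme synthesis in mitochondria, had overlapping groups, from 17.9 to 28.9 CPM and from 14.4 to 21.2 CPM, with a log2 fold change of -0.49 (SE 0.16, adjusted p = 0.0217). The call of Abcb10 was lost without saline replicate 1 (-0.44, adjusted p = 0.0540), without CD95-Ab replicate 2 (-0.47, adjusted p = 0.0529) and with unscaled totals (-0.57, adjusted p = 0.0540). Abcb9, a lysosomal peptide transporter at 1.32 to 1.69 CPM in saline mice, had a log2 fold change of -0.62 (SE 0.23, adjusted p = 0.0437). Its call was lost, with adjusted p from 0.0545 to 0.1004 by edgeR, when any single saline replicate or CD95-Ab replicate 2, 3 or 5 was left out, without a filter on low counts (0.0681) and with the replicate number as a block (0.0861).

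Abce1 and the Abcf proteins have no membrane domain and serve ribosomes rather than transport. Abce1, which splits ribosomes for recycling, was 55.99, 53.2, 70.2, 73.5 and 50.8 CPM in saline mice and 92.2, 87.6, 76.4, 77.5 and 89.6 CPM after CD95-Ab. The groups were close but did not overlap, and the mean rose from 60.7 ± 10.4 to 84.7 ± 7.21 CPM (SD, n = 5 mice per group), with a log2 fold change of 0.48 (SE 0.13, adjusted p = 0.0108). With unscaled totals the log2 fold change was 0.41 and its adjusted p 0.0830 by edgeR. Abcf1, Abcf2 and Abcf3 had log2 fold changes of 0.04, 0.11 and 0.13 and did not pass the test. Abcc9, the sulfonylurea receptor of potassium channels in vascular cells, was 18.5, 13.5, 15.6, 13.2 and 14.4 CPM in saline mice and 24.6, 31.5, 36.9, 21.7 and 41.6 CPM after CD95-Ab. The groups did not overlap, and the mean rose from 15.02 ± 2.14 to 31.2 ± 8.299 CPM (SD, n = 5 mice per group), with a log2 fold change of 1.06 (SE 0.18, adjusted p = 0.000574), beside a rise in 5 of 6 endothelial and 4 of 6 stellate cell markers whose part in it was not tested. The related Abcc8 had 0 counts in every mouse.

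The organic anion transporting polypeptides include the main uptake carriers of hepatocytes. Of 8 tested, 4 fell (Slco1a6, Slco1a4, Slco2b1 and Slco1a1), 2 rose (Slco3a1 and Slco4a1), and Slco1b2 and Slco2a1 did not pass the test. Slco2b1, a carrier of steroid sulfates and statins, was 133, 126, 138, 138 and 114 CPM in saline mice and 67.5, 55.3, 61.1, 62.9 and 76.2 CPM after CD95-Ab. The mice of each group were close together and the groups far apart, and the mean fell from 129.6 ± 9.83 to 64.6 ± 7.81 CPM (SD, n = 5 mice per group), with a log2 fold change of -1.005 (SE 0.12, adjusted p = 3.78e-05). Slco1a1, a bile acid and steroid carrier that is abundant in male liver, was 332, 316, 542, 506 and 300.0 CPM in saline mice and 299, 220.2, 236, 201 and 284 CPM after CD95-Ab. The highest CD95-Ab mouse was just below the lowest saline mouse, and the mean fell from 399 ± 115 to 248 ± 41.8 CPM (SD, n = 5 mice per group), with a log2 fold change of -0.69 (SE 0.20, adjusted p = 0.0148).

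Slco1b2, the rodent counterpart of the human hepatic carriers of bilirubin, bile acids and statins, was 610.3, 558, 1185, 809 and 406 CPM in saline mice and 439.6, 514, 432, 366 and 621 CPM after CD95-Ab. Saline mice spread over a wide range and overlapped with the other group, and the log2 fold change was -0.59 (SE 0.26, adjusted p = 0.08702). It passed the test without saline replicate 5 (-0.74, adjusted p = 0.0240 by edgeR), without both libraries rich in mitochondrial counts (-0.66, adjusted p = 0.0457) and in DESeq2 (-0.60, adjusted p = 0.0482). Slco2a1, the prostaglandin transporter, ranged from 37.3 to 85.9 CPM in saline mice and from 38.9 to 66.8 CPM after CD95-Ab, with a log2 fold change of -0.403 (SE 0.22, adjusted p = 0.143). Without saline replicate 5, the lowest of its group, it was -0.57 (adjusted p = 0.00890 by edgeR). Slco4a1, a thyroid hormone carrier, was 0.0941, 0.296, 0.169, 0.231 and 0.556 CPM in saline mice and 0.513, 0.637, 0.916, 0.606 and 0.553 CPM after CD95-Ab. Saline replicate 5 lay within the CD95-Ab range, with a log2 fold change of 1.199 (SE 0.41, adjusted p = 0.0301). This gene passed the filter through the CD95-Ab group alone, and its call was lost, with adjusted p from 0.05003 to 0.0805, without saline replicate 1, 2, 3 or 4 or CD95-Ab replicate 2 or 3.

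Slco1a4 and Slco1a1 are neighbours on chromosome 6 and fell unequally, so the 250 bases before their starts are printed. They are from RefSeq (GRCm38.p6, minus strand, chr6:141856221-141856470 and chr6:141946963-141947212), 5′ to 3′ on the gene's strand, and neither holds any of the 6 motifs named.
Slco1a4: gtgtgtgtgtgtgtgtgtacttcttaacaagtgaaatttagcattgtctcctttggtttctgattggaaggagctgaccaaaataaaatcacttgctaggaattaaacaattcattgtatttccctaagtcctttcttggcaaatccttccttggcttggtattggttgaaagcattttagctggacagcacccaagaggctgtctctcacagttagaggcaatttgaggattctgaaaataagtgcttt
Slco1a1: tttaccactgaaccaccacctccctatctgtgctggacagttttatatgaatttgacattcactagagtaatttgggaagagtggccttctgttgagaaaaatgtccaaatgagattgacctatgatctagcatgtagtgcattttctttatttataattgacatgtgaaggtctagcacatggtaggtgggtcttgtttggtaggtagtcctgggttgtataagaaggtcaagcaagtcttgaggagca
GC content was 39.2% for Slco1a4 and 40.4% for Slco1a1, and no GENCODE exon overlaps these windows. Their transcripts share few 100-base windows with other genes, 1.1% for Slco1a4 and 0.87% for Slco1a1.

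Slc22a3, an organic cation transporter that carries monoamines, ranged from 1.16 to 4.02 CPM in saline mice and from 2.37 to 3.63 CPM after CD95-Ab, with a log2 fold change of 0.18 (SE 0.34, adjusted p = 0.685).

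The carnitine and ergothioneine carriers fell in 2 of 3 tested cases, beside 22.0% of all genes tested. Slc22a5, the sodium-dependent carnitine transporter, was 17.3, 17.6, 29.5, 27.6 and 38.5 CPM in saline mice and 19.6, 12.9, 12.9, 12.9 and 11.7 CPM after CD95-Ab. CD95-Ab replicate 1 lay above the lowest saline mice, and the mean fell from 26.1 ± 8.89 to 13.99 ± 3.18 CPM (SD, n = 5 mice per group), with a log2 fold change of -0.901 (SE 0.23, adjusted p = 0.007101). Slc22a4, the ergothioneine transporter, was 1.58, 1.78, 2, 2.69 and 1.72 CPM in saline mice and 0.513, 0.733, 0.677, 0.807 and 0.996 CPM after CD95-Ab. Both groups were tight and apart, and the mean fell from 1.96 ± 0.4404 to 0.745 ± 0.177 CPM (SD, n = 5 mice per group), with a log2 fold change of -1.37 (SE 0.24, adjusted p = 0.000618). Slc22a21 ranged from 0.535 to 1.13 CPM in saline mice and from 0.487 to 1.09 CPM after CD95-Ab, with a log2 fold change of 0.06 (SE 0.33, adjusted p = 0.895), and Slc22a5 shares 13.7% of its 100-base windows with it.

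The organic anion SLC22 carriers were mostly scarce. Slc22a30, the most abundant, was 156, 132, 168, 220.0 and 176 CPM in saline mice and 86.3, 91.8, 115, 160.1 and 146 CPM after CD95-Ab. The groups overlapped, and the log2 fold change was -0.51 (SE 0.20, adjusted p = 0.0511), just short of the threshold. It passed in 9 of the alternative fits, DESeq2 (adjusted p = 0.0245), the replicate block (adjusted p = 0.0136) and the fit without CD95-Ab replicate 4 (-0.65, adjusted p = 0.0135) among them, and also without saline replicate 2 (adjusted p = 0.0349) or CD95-Ab replicate 5 (adjusted p = 0.0413). Slc22a7, a carrier of prostaglandins and orotate, ranged from 8.52 to 24.9 CPM in saline mice and from 12.9 to 28.8 CPM after CD95-Ab, with a log2 fold change of 0.32 (SE 0.30, adjusted p = 0.404).

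Slc22a27 and Slc22a29 were called lower at very low levels. Slc22a27 was 0.988, 0.385, 0.873, 0.924 and 2.71 CPM in saline mice and 0.417, 0.191, 0.717, 0.565 and 0.31 CPM after CD95-Ab. Its highest value, in saline replicate 5, stood far above the others, and the groups overlapped, with a log2 fold change of -1.47 (SE 0.50, adjusted p = 0.0307). Without saline replicate 5 the log2 fold change was -0.88 (adjusted p = 0.0916 by edgeR), and the call was also lost without CD95-Ab replicate 1, 2 or 5. Slc22a29 was 0.447, 0.296, 0.6198, 0.462 and 0.705 CPM in saline mice and 0.0642, 0.0637, 0.478, 0.283 and 0.155 CPM after CD95-Ab, or 2 to 12 counts per mouse in the latter. Its groups overlapped, with a log2 fold change of -1.35 (SE 0.49, adjusted p = 0.0402). Its call was lost, with adjusted p from 0.0534 to 0.0934, without saline replicate 1, 3, 4 or 5 or CD95-Ab replicate 1, 2 or 5. Both passed the filter through the saline group alone, and they share 7.65% and 8.43% of their 100-base windows with other genes, mostly with each other and with Slc22a28 and Slc22a30. Slc22a26 and Slc22a28 had log2 fold changes of -0.93 and -0.38 and did not pass the test, but passed without CD95-Ab replicate 1 (-1.40, adjusted p = 0.0211 by edgeR) and without CD95-Ab replicate 4 (-0.52, adjusted p = 0.0348).

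In the rest of the SLC22 family, Slc22a18, an orphan carrier of an imprinted region, was 92.6, 87.1, 82.5, 80.8 and 101 CPM in saline mice and 46.8, 46.2, 56.8, 67.6 and 40.3 CPM after CD95-Ab. The groups did not overlap, and the mean fell from 88.8 ± 8.11 to 51.5 ± 10.7 CPM (SD, n = 5 mice per group), with a log2 fold change of -0.79 (SE 0.15, adjusted p = 0.00103). Slc22a23, another orphan carrier, was 76.6, 69.8, 90.1, 72.7 and 58.4 CPM in saline mice and 56.6, 47.5, 32.6, 38.8 and 57.9 CPM after CD95-Ab. The lowest saline mouse was barely above the highest CD95-Ab mouse, with a log2 fold change of -0.65 (SE 0.18, adjusted p = 0.00912). Slc22a15 and Slc22a17 had log2 fold changes of -0.39 and -0.91 and did not pass the test. Without CD95-Ab replicate 4 both passed (-0.50 and -1.34, adjusted p = 0.0209 and 0.00654 by edgeR), as did Slc22a15 without saline replicate 3 (-0.46, adjusted p = 0.0352).

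**Figure D4:**
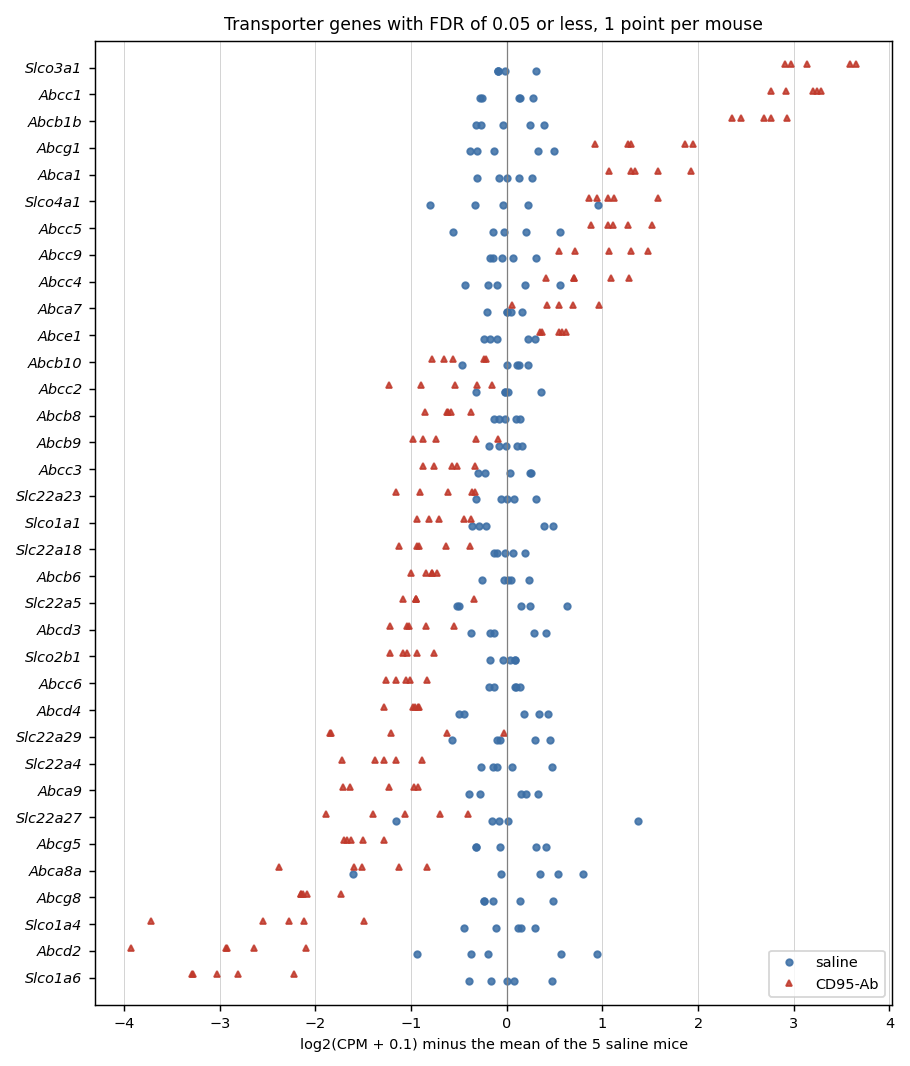
Values of 35 of the 36 called members (y axis, ordered by log2 fold change) in each mouse, as log2(CPM + 0.1) minus the mean of the 5 saline mice (x axis; blue circles saline, red triangles CD95-Ab). The groups are apart for 25 members, and saline replicate 5 is the low saline point of Abca8a.

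The other 27 members were not tested. Of these, 11 had 0 counts in every mouse (Abca12, Abca15, Abca16, Abcb5, Abcc8, Slc22a14, Slc22a16, Slc22a2, Slc22a6, Slco6c1 and Slco6d1), which allows a level of up to 0.0556 to 0.121 CPM in each mouse for counting error alone. The remaining 16 had at most 43 counts in any mouse, and the highest level was the 1.04 CPM of Abca4, the retinal lipid transporter, in CD95-Ab replicate 3. Slc22a6 and Slc22a8, the organic anion carriers of kidney, were at or near 0 in all mice. Of the 61 tested members, 6 (Slc22a17, Slc22a26, Slc22a27, Slc22a29, Slco1a6 and Slco4a1) exceeded the limit on low counts in every mouse of only 1 group.

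Pairs of related members were compared within each mouse by the log2 ratio of their CPM, with an exact two-sided permutation test and adjustment over the 8 pairs. The pairs were chosen with earlier results of these data known. The smallest p that 5 mice against 5 allow is 0.00794. Abcb1b against Abcb1a was -2.17, -1.92, -1.39, -0.26 and -0.74 in saline mice and 0.39, 0.58, 0.46, 0.71 and 0.20 in CD95-Ab mice. The ratio was below 0 in every saline mouse and above 0 in every CD95-Ab mouse, a rise of 1.76 (exact p = 0.00794, adjusted p = 0.0212). Per length, the mean of Abcb1a moved from 0.630 to 0.976 FPKM and that of Abcb1b from 0.198 to 1.26 FPKM. Slco1a4 against Slco1a1 was -2.30, -2.55, -2.60, -2.64 and -1.92 in saline mice and -4.58, -5.31, -3.18, -3.73 and -4.08 in CD95-Ab mice, so that Slco1a4 lost more, with a difference of -1.78 (exact p = 0.00794, adjusted p = 0.0212). Abcg8 against Abcg5 was 0.08, 0.09, 0.21, 0.08 and -0.44 in saline mice and -0.52, -0.47, -0.80, -0.62 and -0.03 in CD95-Ab mice. Its groups overlapped through saline replicate 5 and CD95-Ab replicate 5, with a difference of -0.49 (exact p = 0.0159, adjusted p = 0.0318). This difference did not pass when any mouse but those 2 was left out, with adjusted exact p from 0.0762 to 0.111.

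Abcc4 against Abcc2, a sinusoidal against a canalicular exporter, moved from -7.51 ± 0.37 to -6.05 ± 0.58 (SD, n = 5), a rise of 1.46 (exact p = 0.00794, adjusted p = 0.0212) without overlap between the groups. Abcc3 against Abcc2 moved from -0.61 ± 0.20 to -0.60 ± 0.34 (SD, n = 5), a difference of 0.0159 (exact p = 0.913, adjusted p = 0.9603). Abca1 against Abcg1 likewise moved from 5.396 ± 0.34 to 5.38 ± 0.47 (SD, n = 5), a difference of -0.0125 (exact p = 0.9603, adjusted p = 0.9603). Slc22a5 against Slc22a4 moved from 3.63 ± 0.49 to 4.06 ± 0.58 (SD, n = 5), a difference of 0.43 (exact p = 0.238, adjusted p = 0.318). Slco2b1 against Slco1b2 moved from -2.37 ± 0.49 to -2.86 ± 0.27 (SD, n = 5), a difference of -0.49 (exact p = 0.0952, adjusted p = 0.152), and without saline replicate 3 it was -0.68 with an adjusted exact p of 0.0476.

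**Figure D5:**
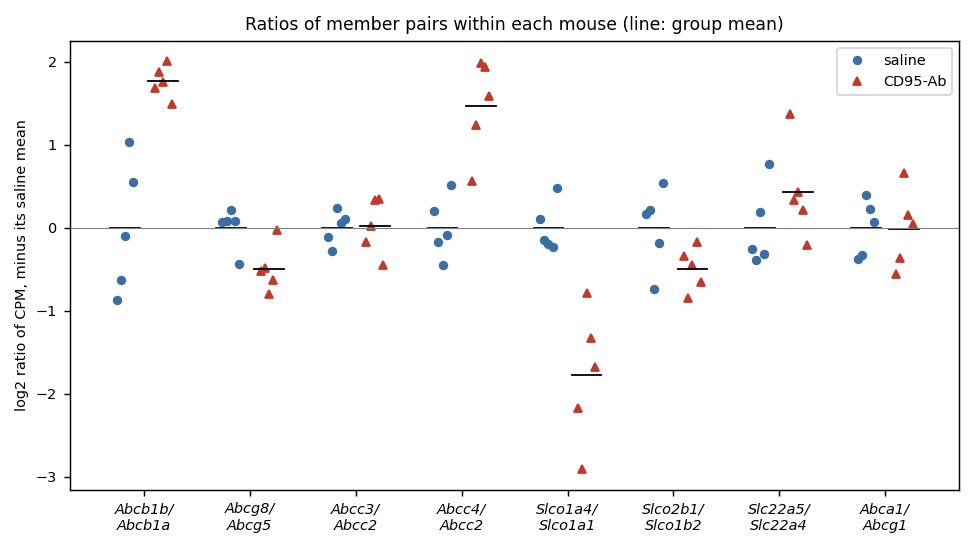
Log2 ratio of the CPM of 8 pairs of members in each mouse, minus the mean ratio of the saline mice (y axis), by pair (x axis; blue circles saline, red triangles CD95-Ab, black lines group means). Abcb1b/Abcb1a and Slco1a4/Slco1a1 separate all mice, with differences of 1.76 and -1.78, whereas Abcc3/Abcc2 and Abca1/Abcg1 lie on the same range in both groups.

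Per transcript length, the most abundant member in saline liver was Slco1b2, with 232 ± 98.3 FPKM (SD, n = 5). Abcd3 (125 ± 23.6 FPKM) and Slco1a1 (116 ± 35.0 FPKM) followed and did not differ from each other beyond their spread. Lower levels were found for Slc22a30 with 77.9 ± 12.5 FPKM and Slc22a18 with 63.6 ± 6.90 FPKM, and Abcc2 with 59.3 ± 14.6 FPKM, which lay within the range of Slc22a18. After CD95-Ab, Slco1b2 was still first with 144 ± 37.4 FPKM. Abcd3 had rank 4 with 61.5 ± 9.73 FPKM. Abcg5 moved from rank 10 to rank 18 of the 88 members, and Abcg8 from rank 13 to rank 26.

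Several members are neighbours on a chromosome, and their counts of calls stand beside the 22.0% of all genes tested that were called lower. In the Slco1 cluster of chromosome 6, which spans 799 kb, 3 of 4 tested genes fell. In the 406 kb Abca cluster of chromosome 11, 2 of 5 fell, in the 624 kb anion carrier cluster of chromosome 19, 2 of 5 (Slc22a27 and Slc22a29, whose calls were lost when single mice were left out), and in the 164 kb carnitine carrier cluster of chromosome 11, 2 of 3. Of these genes, Slco1a6, Slc22a26, Slc22a27 and Slc22a29 exceeded the limit on low counts in every mouse of the saline group only. Such genes could hardly come out higher, so the filter itself favoured a fall in the clusters of chromosomes 6 and 19. With 3 to 5 tested genes each, the counts of calls single out no cluster. On chromosome 5, Abcb1b rose while its neighbours within 299 kb, Abcb1a and Abcb4, were not called.

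Regulators that are known to act on these genes were read from a list of 16, of which 8 fell and 3 rose. All 16 were tested, and the counts stand beside 22.0% lower and 25.4% higher among all genes tested. Among all genes tested at 10 CPM or more in saline mice, 28.6% fell and 17.4% rose. The constitutive androstane receptor Nr1i3, which drives transporter genes in response to drugs, was at 191 ± 33.96 CPM (SD, n = 5) in controls and 23.99 ± 12.9 CPM after CD95-Ab, a log2 fold change of -2.99 with an SE of 0.32 (edgeR adjusted p = 2.06e-05). Others that fell included Cebpa (-1.63), Ppara (-1.60), Foxa2 (-1.32), the bile acid receptor Nr1h4 (-1.13), Rxra (-0.82) and Keap1 (-0.42), each value being a log2 fold change. Nfe2l2, which encodes the oxidative stress factor NRF2, was at 53.2 ± 6.56 CPM (SD, n = 5) in controls and 115 ± 20.9 CPM after CD95-Ab, a log2 fold change of 1.11 with an SE of 0.15 (edgeR adjusted p = 8.63e-05), and Nr0b2 (0.74) and Ahr (0.50) rose as well. The pregnane X receptor Nr1i2 (-0.28), Hnf4a (-0.34), both liver X receptors Nr1h2 (0.08) and Nr1h3 (-0.11), and Nr5a2 (0.44) did not pass the test.

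Of 21 other membrane carriers of hepatocytes, 12 of the 18 tested fell (66.7%) and 1 rose (5.56%), beside 22.0% and 25.4% of all genes tested. Among all genes tested at 10 CPM or more in saline mice, 28.6% fell and 17.4% rose. The bile acid uptake carrier Slc10a1 fell with a log2 fold change of -1.52, the glucose carrier Slc2a2 with -2.01, the nucleoside carrier Slc29a1 with -1.72, the cation exporter Slc47a1 with -1.23 and the copper pump Atp7b with -1.26. The dicarboxylate carrier Slc13a3 rose, with 1.497. Of the ABC proteins whose symbols lie outside the rule, the peptide transporter Tap2 rose with a log2 fold change of 0.98, Tap1 had 0.91 without passing the test, and Cftr was not tested.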

How the data were processed

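RNA of 10 mouse livers was sequenced as pairs of reads. Alignment and assignment to genes were done by the authors with RSEM 1.2.19. The tables deposited hold whole-number expected counts without normalization, and they do not show how RSEM assigned reads that matched more than 1 gene. They also hold the FPKM that the authors obtained from RSEM, which corrects for transcript length and library total. The mouse annotation release is not given in the sources used here. Symbols and positions came from GENCODE M21 (GRCm38), which matched 37606 of 38922 identifiers. Members, role lists, pairs and marker lists were chosen with earlier results of these data known. The symbol rule leaves out 1 ABC gene, and that gene, 3 members and 1 regulator are not reported here by name.

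Genes were kept by filterByExpr (minimum count 10), TMM factors scaled the totals, and the groups entered edgeR's quasi-likelihood test (edgeR 4.0.16, R 4.3.3), with Benjamini-Hochberg adjustment over 13719 genes and group as the only term. Calls used an FDR of 0.05, and the study's second threshold a log2 fold change of 2. Within-mouse ratios used log2 of CPM with a pseudocount of 0.1 and exact two-sided permutation tests in Python 3.11.15. Labels call the mice biological replicates. No library pair of a group agreed within sampling noise. Depth was 25965699 to 62097636 counts, and floors and intervals cover counting error only. No batch is given in the labels. Code was tested on simulated counts. Every called member at 1 CPM or more in either group (at most 8 per role by size of change), every canalicular exporter, the 3 members of each family with the most FPKM and both members of each pair were named, and other members were named where they completed a group. Alternatives were DESeq2 1.42.0, other scalings, filters and thresholds, a replicate block, and each mouse left out. The fit without both libraries over 20% mitochondrial counts was added after seeing the data. Promoters and motif counts are from RefSeq (GRCm38.p6), which held 71 of the 88 members.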

Additional observations from a re-analysis of the deposited data

Results flagged for a closer look

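For the 42 members named by rule, each group of 5 mice was searched for a mouse whose gap to the nearest other mouse took most of the range of the group on the log2 scale. Of 84 groups, 4 held such a mouse, and chance gives about 1 in 20. CD95-Ab replicate 3 had 3.30 CPM of Abcd4, below 4.07 to 4.28 CPM in the other CD95-Ab mice. CD95-Ab replicate 5 had 28.2 CPM of Abcg8, above 21.1 to 22.1 CPM. CD95-Ab replicate 1 had 19.6 CPM of Slc22a5, above 11.7 to 12.9 CPM. Saline replicate 3 had 2.25 CPM of Slco3a1, above 1.69 to 1.78 CPM in the other saline mice. The flagged values come from 4 different mice, and none of them is from the libraries over 20% mitochondrial counts.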

How the results depend on the processing

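Over the 17 alternative fits with an FDR of 0.05, 10 to 13 members were higher, 20 to 31 lower and 6 to 8 past both thresholds, and calls higher made up 26.2% to 34.4% of all calls, compared with 30.6% in the reported fit. None of the called members changed direction, which does not extend to members near a log2 fold change of 0, such as Abcg2 (-0.08). Of the 36 calls, 9 higher and 19 lower were kept in every one of these fits. At an FDR of 0.01, 7 members were higher. With each mouse left out, 10 to 11 members were higher, 20 to 29 lower and 6 to 7 past both thresholds. DESeq2 called 11 higher and 29 lower, unscaled totals 10 and 28, and no filter on low counts 13 and 25. The scalings moved the median log2 fold change of all genes between -0.075 and 0.0064. With the replicate number as a block, 12 members were higher, 25 lower and 7 past both thresholds. Correlations of the deviations of mice that share a number ran from -0.27 to 0.26, and 2 of 5 matched best with their own number, so the replicate block does not stand for paired mice. With each mouse left out, the ratio of Abcg8 to Abcg5 differed by -0.61 to -0.41 and that of Slco2b1 to Slco1b2 by -0.68 to -0.36. Without both libraries over 20% mitochondrial counts, an alternative chosen after seeing the data, differences were 1.84 for Abcb1b to Abcb1a, -0.57 for Abcg8 to Abcg5, 1.47 for Abcc4 to Abcc2 and -1.77 for Slco1a4 to Slco1a1, each with an adjusted exact p of 0.0571, the smallest reached with 4 mice against 4. The counts limit members below about 1 CPM, of which Slc22a27, Slc22a29 and Slco4a1 lost their call when single mice were left out.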
